A study of Mus musculus with 4 samples.

Results

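The transcripts described here encode the core of the NF-kB system: the DNA-binding subunits Nfkb1, Nfkb2, Rela and Relb, the inhibitors Nfkbia, Nfkbie and Nfkbiz, the feedback regulators Tnfaip3 and Birc3, and the adhesion molecule gene Icam1. They are the rows with those 10 gene symbols, of 54838 gene rows in each deposited file, and all 10 passed the filter on low counts. The cells were Hepa1-6, a mouse hepatocellular carcinoma line, in 2 groups of 2 libraries each, and no treatment or time point is given for either. The libraries labelled NC were wild type for Acvr2a, a type II activin receptor gene, and those labelled KO were Acvr2a knockout. The design text speaks of subclones for the knockout cells. Whether the KO libraries come from separate subclones or from 1, and whether the NC cells had been cloned, is not given in the sources used here. A difference between the groups therefore cannot be told apart from a difference between clones, and the p-values measure only the spread between these libraries. The study's title places Acvr2a loss beside lactate output and regulatory T cell recruitment in liver cancer.

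NF-kB proteins bind DNA as pairs of subunits. In resting cells IkB proteins such as the product of Nfkbia hold them in the cytoplasm, and signals from receptors for TNF, interleukin-1 or microbial products activate the IkB kinase, which marks IkB for destruction. The freed subunits switch on inflammatory, adhesion and survival genes and also genes that end the signal, so that Nfkbia and Tnfaip3 are both targets and brakes. In a second, slower branch the kinase encoded by Map3k14 drives the processing of the Nfkb2 product, whose usual partner is Relb. In the liver the system is known for its part in the acute-phase response, in hepatocyte survival during injury and in inflammation-linked cancer.

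Library totals lay between 11597945 and 13910593 expected counts, and log2 CPM (counts scaled to a common library size) correlated at 0.989 across genes within each group. Acvr2a itself was counted 81 and 108 times in the NC libraries and 75 and 97 times in the KO libraries (log2 fold change -0.21, SE 0.20, edgeR quasi-likelihood, adjusted p = 0.433), so its RNA level did not separate the groups, which are named by their labels throughout. Exons of Orc4 overlap Acvr2a on the other strand. Whether reads were counted by strand is not given in the sources used here, so reads of genes that overlap on opposite strands may not be told apart, which bears on each gene named below as having such a partner. Of 14 hepatocyte and hepatoma markers 10 had a count in every library, led by Krt18, Alb, Krt8 and Trf. Of these 10, 2 were higher and 4 lower in KO. That is 6 of 10 called at the threshold given below, against 37.9% of all tested genes. Alb (0.41 in log2) and Trf (0.54) were higher, and Afp (-1.21), Foxa2 (-0.89), Fgb (-0.75) and Hnf4a (217 and 227 CPM in NC, 117 and 106 CPM in KO) were lower. The part of these differences in the results was not tested. The hepatocyte genes Ttr, Apoh, Serpina1a and Ahsg had at most 5 counts in any library.

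Of the 10 genes, 4 rose and 2 fell in KO. At a Benjamini-Hochberg adjusted p of 0.05 (edgeR), 37.9% of all 12510 tested genes were called, with 19.7% higher and 18.2% lower in KO, and so were 6 of the 10 genes. Nfkbia, Nfkbiz, Tnfaip3 and Icam1 were higher in KO, and Nfkb1 and Relb were lower. Nfkb2, Rela, Nfkbie and Birc3 did not pass. In bulk RNA, fewer cells with a transcript and less of it per cell cannot be told apart. The median log2 fold change of the 10 was 0.07, against -0.0037 over all tested genes, whose middle 50% lay between -0.25 and 0.31. The CPM values of the groups did not overlap for these 6 genes, while 69.4% of all tested genes showed no overlap. With limma on log2(TPM + 1), where TPM scales transcripts by length and library, the count was 5, the call for Nfkb1 being lost, and 68.0% of the 2158 genes that this fit called were higher in KO, against 51.9% in the count fit.

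**Figure D1:**
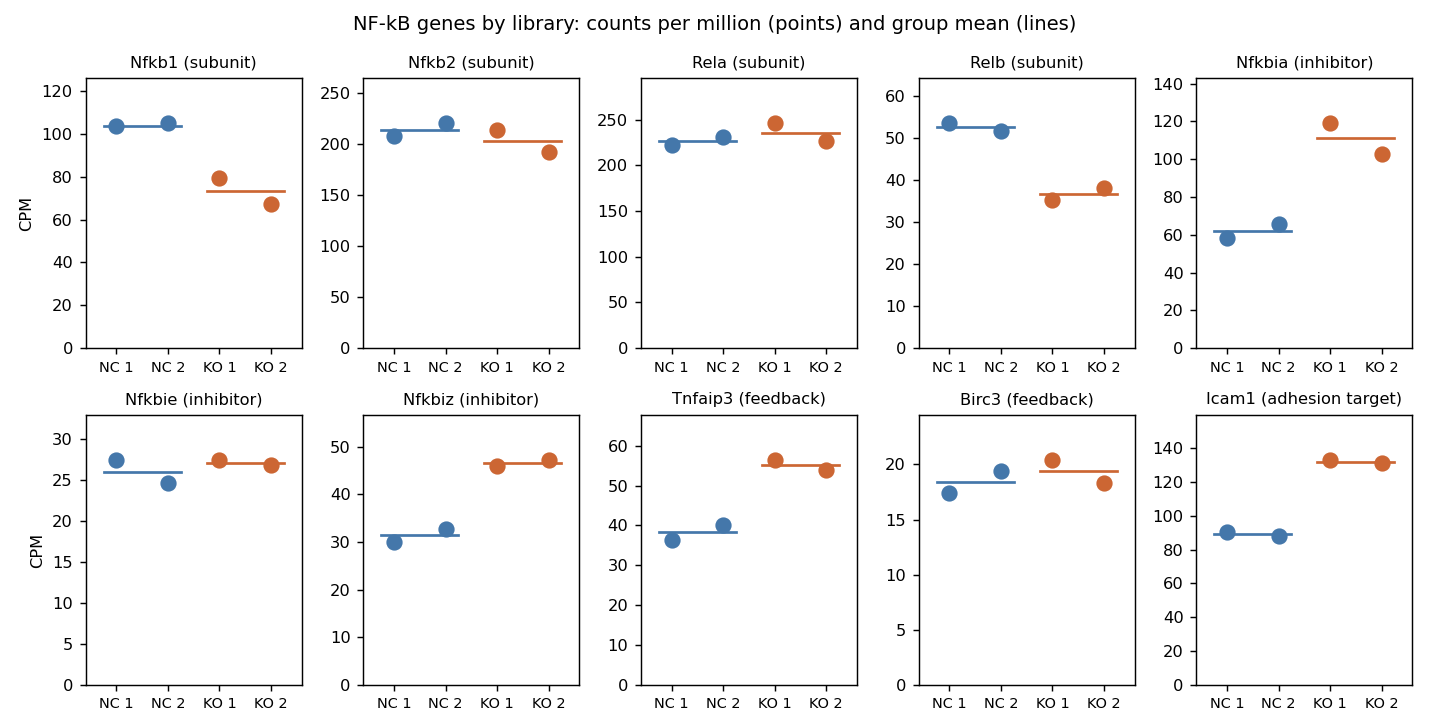
CPM (counts scaled to a common TMM-adjusted library size, vertical axis from 0) of the 10 genes in each of the 4 libraries, blue for NC and orange for KO, with the group mean as a line. The KO points of Nfkbia, Nfkbiz, Tnfaip3 and Icam1 lie above both NC points, those of Nfkb1 and Relb lie below both, and the groups overlap in the other panels.

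The sequence around the start sites is shown for the genes in which a kappa-B motif, the site NF-kB binds, was found. Any part of these sites in the group differences was not tested. RefSeq windows (GRCm38.p6) were found for 7 of the 10 genes, 10 windows in all, and not for Nfkb1, Relb and Nfkbiz. The 250 bases before each start were searched on both strands for the degenerate kappa-B consensus of 10 bases. It was in 4 of the 7 genes, Nfkbia, Nfkbie, Tnfaip3 and Nfkb2, against 4.46% of the 27025 genes in the table, and in 6 of the 10 windows, against 3.90% of 32851 windows. Matches are a description of the letters only, and binding was not measured. Bases that match the consensus on either strand are in capitals, each line runs along the strand of its gene, and windows that lie in annotated exons are cut to the site.
Nfkbia, chr12:55492648-55492897, minus strand: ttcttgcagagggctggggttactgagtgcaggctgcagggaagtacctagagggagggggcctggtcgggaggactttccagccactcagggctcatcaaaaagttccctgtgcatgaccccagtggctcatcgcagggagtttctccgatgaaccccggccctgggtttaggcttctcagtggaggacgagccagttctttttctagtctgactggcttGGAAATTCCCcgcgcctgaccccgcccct
Nfkbie, chr17:45555450-45555699, plus strand: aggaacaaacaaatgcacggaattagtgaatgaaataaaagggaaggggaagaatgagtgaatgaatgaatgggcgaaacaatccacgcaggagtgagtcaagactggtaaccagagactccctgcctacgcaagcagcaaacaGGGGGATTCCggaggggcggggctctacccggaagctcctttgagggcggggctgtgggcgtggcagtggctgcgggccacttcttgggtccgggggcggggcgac
Tnfaip3, chr10:19015411-19015432, minus strand: aatttccatcGGAAATCCCCct
Tnfaip3, chr10:19015516-19015545, minus strand: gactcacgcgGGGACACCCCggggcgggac
Nfkb2, chr19:46304688-46304717, plus strand: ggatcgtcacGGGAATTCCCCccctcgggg
Nfkb2, chr19:46304716-46304736, plus strand: ggggccgaaaGGGGCTTTCCc
Nfkb2, chr19:46305449-46305478, plus strand: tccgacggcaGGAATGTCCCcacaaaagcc
Nfkb2, chr19:46305695-46305724, plus strand: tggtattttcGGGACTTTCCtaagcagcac
In Nfkbia the site began 29 bases before the RefSeq start. In Tnfaip3 the nearer site began 12 bases before it, and in Nfkb2 the nearest began 11 bases before the first of its 3 starts. The printed Tnfaip3 and Nfkb2 sites lie inside the GENCODE bounds of these genes, so their distances hold for the RefSeq starts only. In Nfkbie the site lay further out, from 106 bases before the start. Genes with a match thus include 2 that rose and 2 that did not pass between the groups. The searched genes without a match were Icam1, which rose, and Rela and Birc3, which did not pass.

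Of the subunits, the 2 that fell were Nfkb1 and Relb. Nfkb1 (ENSMUSG00000028163.17, GENCODE positions on GRCm38 here and below, chromosome 3, 135584655 to 135691547, minus strand) encodes a precursor that is cut to a DNA-binding subunit without a transactivation domain. NC 1 and NC 2 had 104.0 and 105 CPM, while KO 1 had 79.4 CPM and KO 2 had 67.1 CPM. Both KO libraries lay below both NC libraries, and the spread within KO (SD 8.66 CPM) was wider than within NC (SD 0.625 CPM). The log2 fold change was -0.51 (SE 0.10, 95% interval -0.71 to -0.31, edgeR adjusted p = 0.000167). On the log2(TPM + 1) scale the difference was -0.36 and did not pass (limma, adjusted p = 0.0849, with adjusted p from 5.13e-07 to 0.0851 over the alternatives). TPM divides by the transcript length that RSEM assigns, which for Nfkb1 was 2747 and 2746 bases in NC and 2646 and 2549 bases in KO. The median over all tested genes was 0.06 in that TPM fit and -0.004 in the count fit. The part of either in the lost call was not tested.

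Relb (ENSMUSG00000002983.17, chromosome 7, 19606217 to 19629438, minus strand) encodes the subunit of the slower branch. Its values were 53.5 and 51.6 CPM in NC and 35.3 and 38.2 CPM in KO, with no overlap. The fall was -0.52 on the log2 scale (SE 0.10, 95% interval -0.73 to -0.30, edgeR adjusted p = 0.000267), to 0.700 of the NC level, and it passed in each alternative tried.

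Rela and Nfkb2 did not pass, and their intervals bound any difference. Rela (ENSMUSG00000024927.7, chromosome 19, 5637483 to 5648130, plus strand) encodes the main transactivating subunit. It was at 222 and 231 CPM in NC and at 246 and 227 CPM in KO. The interval of its log2 fold change of 0.06 ran from -0.13 to 0.25 (edgeR adjusted p = 0.634). Nfkb2 (ENSMUSG00000025225.14, chromosome 19, 46304320 to 46312385, plus strand) encodes the precursor that pairs with the Relb product. It had 208 and 220 CPM in NC and 214 and 192 CPM in KO, a log2 fold change of -0.07 (95% interval -0.26 to 0.11, adjusted p = 0.556). Exons of Psd and AC114539.1 on the other strand overlap Nfkb2, and Psd had at most 154 counts in a library against at least 2360 for Nfkb2. For 2 pairs, each a subunit gene that fell over one that did not pass, the ratio within a library was lower in KO. Nfkb1 TPM per Rela TPM was 0.463 and 0.448 in NC against 0.333 and 0.317 in KO. Relb TPM per Nfkb2 TPM was 0.382 and 0.348 in NC against 0.240 and 0.286 in KO. These ratios follow from the changes of the genes in them, add nothing to the calls, and were not tested. The summed TPM of the 4 subunit genes overlapped between the groups (NC 246 and 267, KO 261 and 229).

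**Figure D2:**
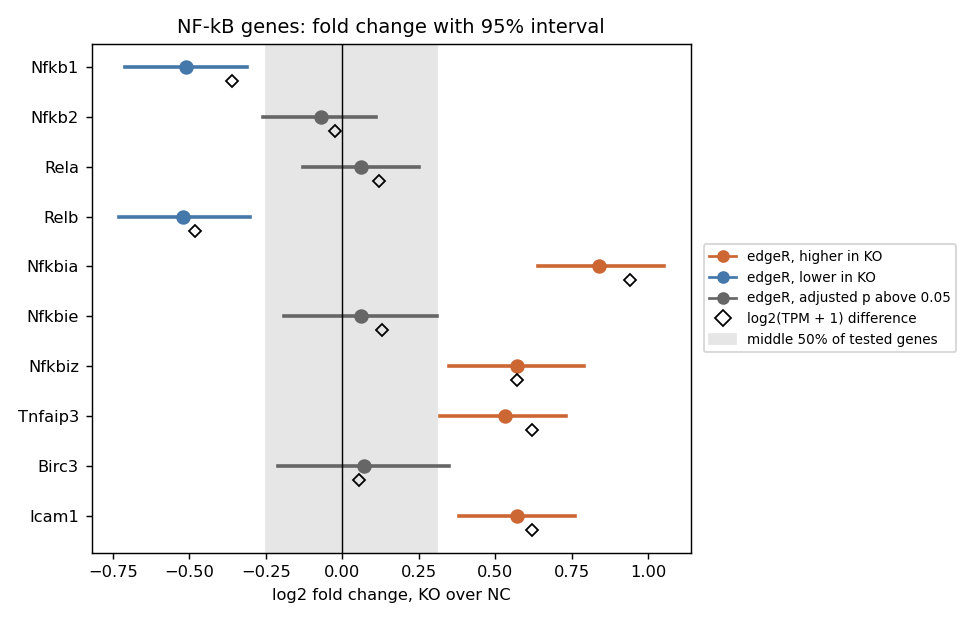
log2 fold change of KO over NC for each of the 10 genes (filled circles) with the 95% interval from edgeR (bars), and the difference of log2(TPM + 1) as open diamonds; the grey band is the middle 50% of all tested genes, -0.25 to 0.31. Orange and blue mark genes past an adjusted p of 0.05, and Nfkb1 shows the widest gap between the count and TPM values, -0.51 against -0.36.

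Among the inhibitors, Nfkbia changed most of the 10 genes. Nfkbia (ENSMUSG00000021025.8, chromosome 12, 55489410 to 55492647, minus strand) encodes the classical IkB that retains Rela-containing pairs and is resynthesised after each round of activation. It was counted 663 and 907 times in NC and 1565 and 1397 times in KO, which is 58.3 and 65.5 CPM against 119 and 103 CPM. The lower KO library exceeded the higher NC library by more than the gap within either group. The log2 fold change was 0.84 (SE 0.10, 95% interval 0.64 to 1.05, edgeR adjusted p = 2.21e-07), a fold of 1.79. Per length it moved from place 3 of the 10 genes in NC to place 1 in KO, from 79.9 ± 11.2 to 155 ± 22.4 TPM (SD, n = 2). The ratio of Nfkbia TPM to the summed TPM of the 4 subunit genes was 0.293 and 0.329 in the NC libraries and 0.654 and 0.606 in the KO libraries. It restates the rise of Nfkbia and was not tested.

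Nfkbiz (ENSMUSG00000035356.17, chromosome 16, 55811375 to 55838899, minus strand) encodes a nuclear IkB protein that is itself induced by NF-kB and is needed for a set of secondary response genes. It was counted 341 and 454 times in NC and 605 and 638 times in KO, and the KO mean was 46.6 ± 0.927 CPM against 31.4 ± 1.97 CPM in NC (SD, n = 2), with no overlap. The log2 fold change was 0.57 (SE 0.11, 95% interval 0.35 to 0.79, edgeR adjusted p = 0.000143). Nfkbie (ENSMUSG00000023947.8, chromosome 17, 45555703 to 45563169, plus strand) encodes another cytoplasmic IkB and did not pass. It had 27.4 and 24.6 CPM in NC and 27.4 and 26.8 CPM in KO, a log2 fold change of 0.06 with an interval of -0.19 to 0.31 (edgeR adjusted p = 0.719). The intervals of Nfkbia and Nfkbie do not meet, though the difference between the 2 genes was not tested. The summed TPM of the 3 inhibitor genes was 94.4 and 111 in NC against 201 and 168 in KO. Nfkbia was the largest part of it in each library.

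Of the feedback regulators, Tnfaip3 rose and Birc3 did not pass. Tnfaip3 (ENSMUSG00000019850.11, chromosome 10, 19000910 to 19015657, minus strand) encodes a ubiquitin-editing enzyme that shuts down signalling from the TNF receptor and Toll-like receptors. Its values were 36.4 and 40.1 CPM in NC and 56.4 and 54.0 CPM in KO, without overlap. The log2 fold change was 0.53 (SE 0.10, 95% interval 0.32 to 0.73, edgeR adjusted p = 0.000208). The RSEM length of Tnfaip3 ranged from 3553 to 4072 bases within NC and from 3457 to 3810 bases within KO, so it varied as much between replicates as between groups. Birc3 (ENSMUSG00000032000.17, chromosome 9, 7848699 to 7873186, minus strand) encodes a ubiquitin ligase that sits on the TNF receptor complex and keeps the kinase of the slower branch low. It was at 17.4 and 19.4 CPM in NC and 20.4 and 18.3 CPM in KO, with a log2 fold change of 0.07 (95% interval -0.21 to 0.35, adjusted p = 0.721). Birc3 has the lowest counts of the 10 genes, 198 to 269 in a library, and its close paralog Birc2 lies beside it on chromosome 9, so reads could be shared between them.

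Icam1 (ENSMUSG00000037405.8, chromosome 9, 21015985 to 21028817, plus strand) encodes a cell surface ligand for leukocyte integrins and is a standard readout of NF-kB activity. It was at 90.6 and 87.9 CPM in NC and at 133 and 131 CPM in KO, so that replicates lay close together and the groups far apart. The log2 fold change was 0.57 (SE 0.09, 95% interval 0.38 to 0.76, edgeR adjusted p = 2.16e-05). Gm47079 overlaps its exons on the other strand and had between 2 and 7 counts in a library, against 1030 to 1775 for Icam1. Vcam1, the gene of a related adhesion molecule and also an NF-kB target, chosen after its values were seen, had 50.8 and 53.9 CPM in NC and 49.8 and 50.1 CPM in KO (log2 fold change -0.07, 95% interval -0.27 to 0.13, adjusted p = 0.619).

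Levels between genes were compared per transcript length, in TPM. In NC the order was Rela (99.9 ± 6.48, SD, n = 2), Nfkb2 (81.5 ± 6.14), Nfkbia (79.9 ± 11.2), Nfkb1 (45.4 ± 1.89), Icam1 (42.4 ± 0.622) and Relb (29.6 ± 0.269), followed by Birc3, Nfkbie, Tnfaip3 and Nfkbiz between 10.2 and 13.9. Nfkb2 and Nfkbia overlapped in NC, and so did each pair of neighbours among the last 4. In KO the first places went to Nfkbia (155 ± 22.4), Rela (108 ± 9.32), Nfkb2 (80.2 ± 9.04), Icam1 (65.6 ± 2.74) and Nfkb1 (35.3 ± 4.22), and Icam1 thus stood above Nfkb1. Tnfaip3 (18.5 ± 0.226) and Nfkbiz (15.7 ± 0.127) came before Birc3 and Nfkbie in KO, although Birc3 overlapped both Nfkbiz and Nfkbie.

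**Figure D3:**
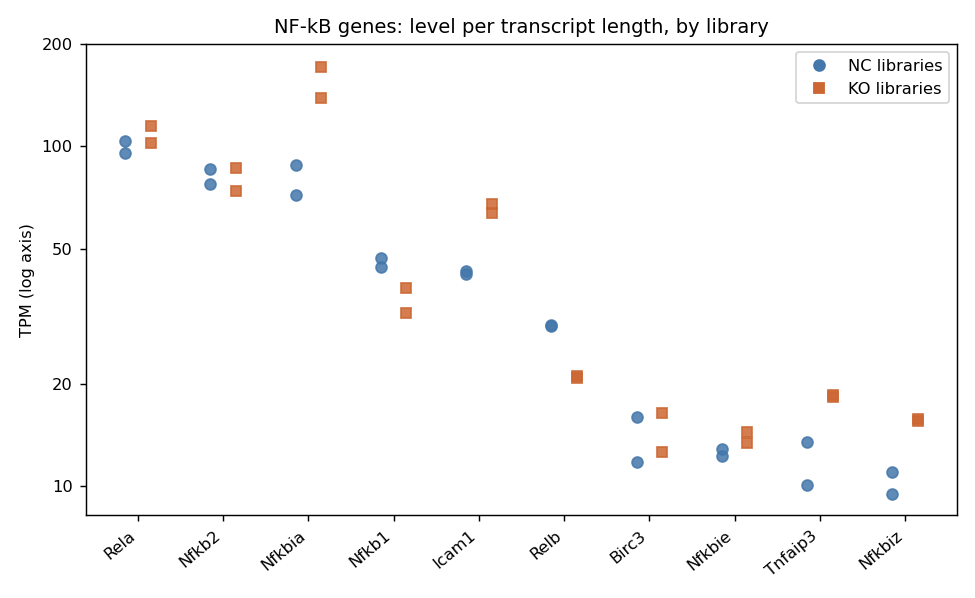
TPM of the 10 genes on a log axis, ordered by their mean in NC, with 1 point per library (circles for NC, squares for KO). Nfkbia rises past Rela in the KO libraries, and Icam1 and Nfkb1 change order.

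The rest of the pathway was described from lists of 76 genes in 5 groups, of which 62 were tested. Of these, 13 were higher and 7 lower in KO, or 32.3%, near the 37.9% of all tested genes, and the median log2 fold change was 0.04. The count of 20 was 11 with DESeq2, 4 with limma on log2(TPM + 1) and 13 without NC 1.

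For the other subunits and IkB proteins, 2 of 7 were lower and none was higher (median -0.09), a share of 28.6% against 37.9% of all tested genes. Bcl3, a nuclear IkB relative that works with the Nfkb1 and Nfkb2 products, was at 73.4 and 84.6 CPM in NC and 60.0 and 51.7 CPM in KO, and its log2 fold change was -0.50 (SE 0.10, edgeR adjusted p = 0.000359). Its exons overlap Gm16175 on the other strand. It did not pass with limma on TPM (adjusted p = 0.0709 and 0.0717). Commd1, which limits Rela activity, fell as well (-0.50 in log2, SE 0.16, adjusted p = 0.0123), but the value was -0.27 without NC 1 (adjusted p = 0.311, the highest over the alternatives) and -0.43 without KO 2 (adjusted p = 0.0550), and the call was also lost with DESeq2 (adjusted p = 0.0751) and with limma on TPM. Its exons overlap Gm28048 on the same strand and Zrsr1 on the other. Nfkbib, a further IkB gene named after its values were seen, did not pass (-0.19 in log2, adjusted p = 0.175).

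Of the 27 kinase and adaptor genes 7 were higher and none was lower, a share of 25.9% against 37.9% of all tested genes, and their median was 0.02. Ikbke, which encodes an IkB kinase relative that is itself induced by NF-kB, changed most, from 74.5 and 72.8 CPM in NC to 108 and 109 CPM in KO (log2 fold change 0.56, SE 0.09, edgeR adjusted p = 2.83e-05), and it passed in each alternative. Its exons overlap the predicted genes Gm28913 and Gm28914 on the other strand. The other 6 were Tab3 (0.43), Traf1 (0.40), Traf6 (0.36), Card10 (0.31), Tab2 (0.29) and Map3k7 (0.27). Traf6 encodes an adaptor of the interleukin-1 and Toll-like receptors, Map3k7 a kinase that activates the IkB kinase, and Tab2 and Tab3 its partners. Tab1, the gene of a further partner, named after its values were seen, did not pass (-0.29 in log2, adjusted p = 0.0637). Each of these 6 lost its call when 1 library was left out: Tab3 and Traf6 without KO 2, Traf1 without NC 1, NC 2 or KO 1 (0.21), Card10 without NC 2 or KO 2, Tab2 without NC 1 or KO 2, and Map3k7 without NC 1 or KO 1. Tab3, Traf1 and Map3k7 also lost it with DESeq2. With limma on TPM all but Map3k7 lost it, and Map3k7 was at 0.68. Traf1, Card10, Tab2 and Map3k7 were named after their values were seen, as were the catalytic kinase genes Ikbkb (log2 fold change 0.20, adjusted p = 0.124) and Chuk (-0.27, adjusted p = 0.0546), which did not pass.

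Receptors were called in both directions, as all tested genes were. Of 17 listed 12 were tested, 2 were higher and 3 lower. The share called, 41.7%, was near the 37.9% of all tested genes. Il17ra, the interleukin-17 receptor gene, rose from 12.4 and 14.4 CPM to 24.3 and 24.7 CPM (log2 fold change 0.87, SE 0.14, edgeR adjusted p = 1.82e-05). Tnfrsf1b, a TNF receptor gene, had 0.42 (SE 0.14, adjusted p = 0.0199), and 0.35 without NC 2 and 0.30 without KO 1 (adjusted p = 0.142 and 0.161, the highest over the alternatives). It was also lost with DESeq2 (adjusted p = 0.104) and with limma on TPM. Lower in KO were the interleukin-1 receptor gene Il1r1 (-0.52, SE 0.13), Tlr3 (-1.04, SE 0.29) and Tlr4 (-0.45, SE 0.14), with Tlr3 at 4.31 and 5.99 CPM in NC and 2.50 and 2.52 CPM in KO. Exons of Gm45542 overlap Tlr3 on the other strand. The call of Tlr3 was lost in 1 of 11 alternatives, without NC 2 (-0.77, adjusted p = 0.0845), that of Il1r1 with limma on TPM, and that of Tlr4 in 5 of 11 alternatives, among them without NC 1 and without KO 1. The main TNF receptor gene Tnfrsf1a (0.02, 95% interval -0.16 to 0.21) and the lymphotoxin receptor gene Ltbr (-0.20, adjusted p = 0.0859), both named after their values were seen, did not pass.

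Of 10 activating ligand genes listed, 8 had too few counts to be tested. The 2 that were tested were Tnfsf12 and Ltb, a lymphotoxin gene named after its values were seen. Ltb had 17.3 and 16.8 CPM in NC and 15.2 and 14.8 CPM in KO and did not pass (-0.18 in log2, edgeR adjusted p = 0.322). Tnf and Lta each had 0 and 3 counts in NC and 3 and 5 counts in KO, Tnfsf13b had at most 2 counts, Il1a had at most 1 count in a library, and Il1b, Il17a, Tnfsf11 and Tnfsf14 had 0 in every library. Tnfsf12, the ligand of the receptor encoded by Tnfrsf12a, was lower in KO (log2 fold change -0.44, SE 0.14, edgeR adjusted p = 0.0127), but its exons overlap the read-through gene Tnfsfm13 on the same strand. Its value was -0.26 without KO 1 (adjusted p = 0.182, the highest over the alternatives) and -0.34 without NC 2 (adjusted p = 0.130), and the call was also lost with DESeq2 (adjusted p = 0.0699) and with limma on TPM.

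Other feedback inhibitors included 4 higher and 1 lower gene among 14 tested, with a median of 0.25. The share called, 35.7%, was near the 37.9% of all tested genes. N4bp1 (0.35, SE 0.09), Birc2 (0.48, SE 0.15), Tax1bp1 (0.27, SE 0.09) and the deubiquitinase gene Cyld (0.29, SE 0.11, named after its values were seen) were higher, and Usp21 (-0.40, SE 0.10) was lower. Each of these 5 lost its call with limma on TPM, where the adjusted p ranged from 0.0623 upward. Birc2 was also lost with DESeq2, without NC 1 and without KO 2 (0.33), Tax1bp1 without NC 2, and Cyld with DESeq2, without the filter on low counts, and without NC 1, NC 2 or KO 2.

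**Figure D4:**
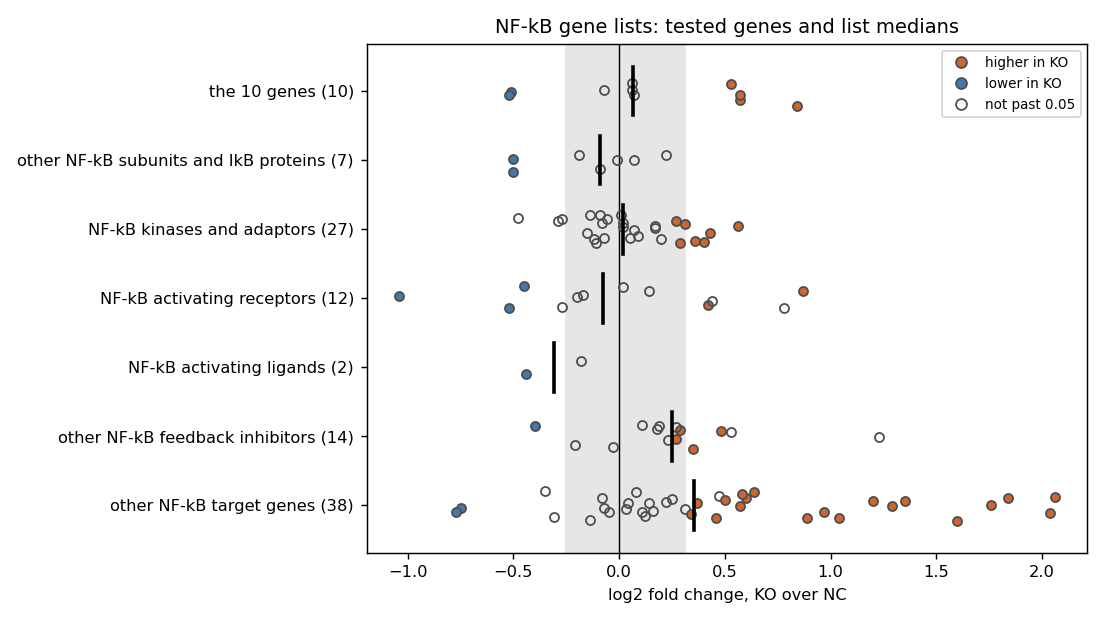
log2 fold change of KO over NC for the tested genes of each NF-kB list, with the number tested in brackets, the list median as a vertical bar and the middle 50% of all tested genes as a grey band; the vertical jitter has no meaning. Orange and blue points passed an adjusted p of 0.05 in edgeR. The target genes are spread to the right with a median of 0.36, while the kinase and adaptor genes centre on 0.02.

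Downstream, the other NF-kB target genes leaned towards higher values in KO. Of 48 listed 38 were tested, 19 were higher and 2 lower, and the median log2 fold change was 0.36. The share called, 55.3%, stands beside 37.9% over all tested genes, and the share of calls that were higher, 90.5%, beside 51.9%. The count was between 19 and 22 in every alternative. The division by function was made after the values were seen. The list, with or without its chemokine genes, was written with earlier results of these data known, the rise of several chemokine genes among them. The shares therefore describe the list and are no test of it. Without the 10 chemokine genes, 13 of 29 were higher and 1 lower, with a median of 0.25. That is 48.3% called, beside 37.9% over all tested genes.

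By function, chemokine genes gave 6 higher and 1 lower of 9 tested, or 77.8% called, against 37.9% of all tested genes. Ccl5, which attracts T cells, stood at 2.81 and 3.25 CPM in NC and 10.8 and 14.4 CPM in KO (log2 fold change 2.04, SE 0.23, edgeR adjusted p = 4.10e-08). Cxcl5, which attracts neutrophils, went the other way, from 84.4 and 61.2 CPM to 41.6 and 44.9 CPM (log2 fold change -0.75, SE 0.12, adjusted p = 1.54e-05), and was -0.50 without NC 1. Ccl2, a monocyte chemoattractant gene named after its values were seen, had 0.89 (SE 0.12).

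Of the survival, death and stress genes, 3 of 12 were higher and 1 was lower. The share called, 33.3%, was near the 37.9% of all tested genes. Gadd45b, a stress-induced survival gene, rose from 11.8 and 11.9 CPM to 29.6 and 30.6 CPM (log2 fold change 1.35, SE 0.14, edgeR adjusted p = 1.34e-08). Fas, the gene of a death receptor, and Ier3, an early response gene, had 1.29 (SE 0.24) and 0.50 (SE 0.09), and both were named after their values were seen. Phlda1, at 658 and 748 CPM in NC and 437 and 387 CPM in KO, was the other target that fell, and its exons overlap Gm28592 on the other strand (log2 fold change -0.77, SE 0.10, adjusted p = 7.01e-07).

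Among secreted signals, 2 of 5 were higher and none was lower, a share near the 37.9% called among all tested genes. The growth factor gene Csf2 rose from 4.66 and 3.61 CPM to 14.8 and 13.1 CPM (log2 fold change 1.76, SE 0.20, edgeR adjusted p = 7.81e-08), and its exons overlap Gm12223 on the other strand. Edn1, the endothelin gene, had 1.84 (SE 0.25), with Gm47118 on the other strand. Of the adhesion molecule and protease genes 1 of 3 tested was higher, or 33.3% called, near the 37.9% of all tested genes. The mixed group of enzymes, antigen presentation and other genes held 7 higher of 9, or 77.8%, against the same 37.9%. Among them were Tnfaip2 (0.97, SE 0.11), a TNF-induced gene, and Cd83 (2.06, SE 0.39), a gene of low level (0.704 and 1.08 CPM in NC). Edn1, Tnfaip2 and Cd83 were named after their values were seen. Il6, Ptgs2, Saa3 and Sele, which NF-kB induces in many cell types, had at most 3 counts in any library, and were also picked after their values were seen.

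**Figure D5:**
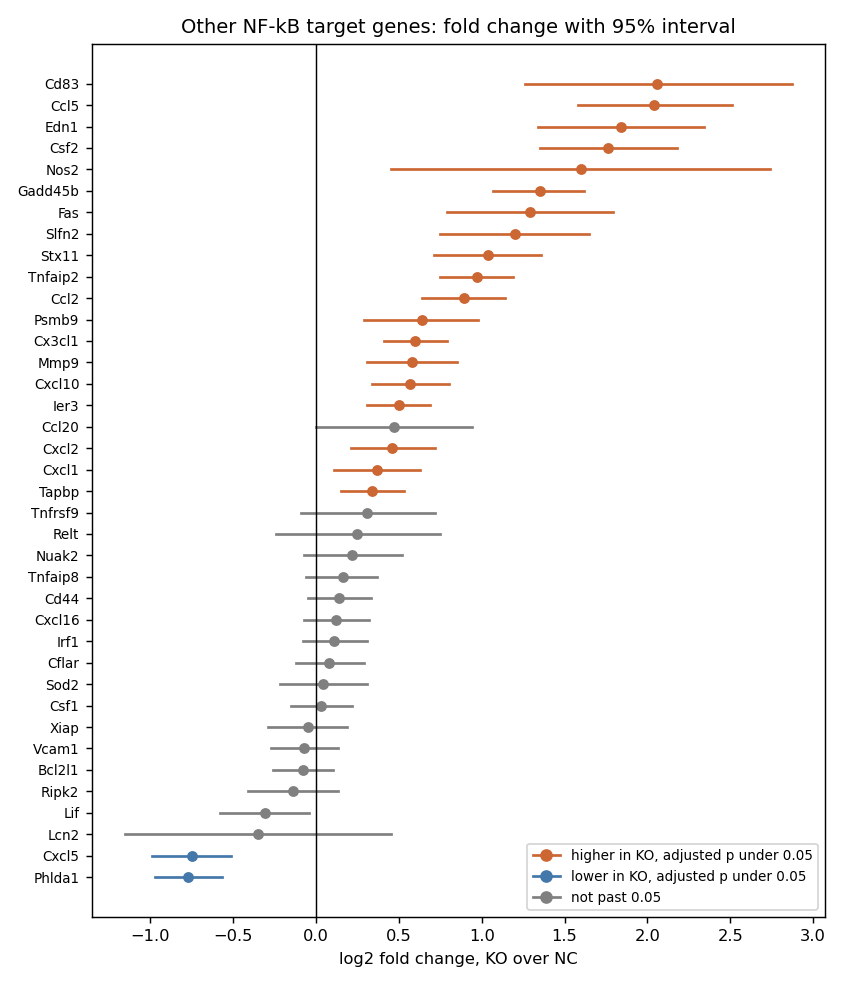
log2 fold change of KO over NC with the 95% interval from edgeR for the 38 tested target genes, ordered by size. Orange marks the 19 genes that were higher and blue the 2 that were lower past an adjusted p of 0.05, and the grey intervals belong to genes that did not pass.

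Immune and endothelial cells also carry these transcripts, so markers of other cell types were read in the same libraries. Leukocyte markers summed to 24.8 and 29.0 TPM in NC and 57.5 and 69.3 TPM in KO, nearly all of it Cd68 (24.0 and 27.7 TPM against 55.5 and 67.6 TPM), a lysosomal gene. Among these markers Cd3e, Ms4a1 and Nkg7 had 0 counts and the pan-leukocyte gene Ptprc had at most 2 counts in a library. The 8 endothelial markers summed to at most 1.15 TPM, with Cdh5, Tek, Emcn and Cldn5 at 0. The 11 stellate cell and fibroblast markers summed to 1036 and 1098 TPM in NC and 1241 and 1244 TPM in KO, nearly all of it Dcn, which did not pass, while Col3a1, Lum, Reln and Lrat had 0 counts. Of the 4 tested markers of that list 3 were higher in KO, with a list median of 1.13 in log2. These were Col1a1 (2.73, from 6 and 5 counts to 38 and 41), Des (1.28) and Pdgfra (0.97), named after their values were seen. The 5 cholangiocyte markers summed to 77.5 and 92.2 TPM in NC and 121 and 114 TPM in KO. A count in every library was seen for 4 of them. Of these 4, 3 were higher and 1 lower, or 100% called, against 37.9% of all tested genes. The part of these genes in the NF-kB differences was not tested.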

How the data were processed

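RNA-seq libraries of Hepa1-6 cells (2 NC, 2 KO) were analysed from the gene-level tables of the series. Per the labels' protocols, RNA was extracted with TRIzol and libraries were made with a directional kit. Per the submitters' processing notes, FastQC, STAR, RSEM and DESeq2 and the build GRCm38 (mm10) were used. Their versions and roles and the strand setting are not given in the sources used here. The authors' deposited expected counts are RSEM estimates that share ambiguous reads among genes, and the deposited TPM values are scaled by length. The deposited FPKM values, per the file headers, were not used. Lengths are RSEM's abundance-weighted values, per the file headers.

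Expected counts were rounded (totals changed by at most 0.000188%), filtered with filterByExpr, scaled by TMM and compared across all genes with edgeR's quasi-likelihood test (edgeR 4.0.16, R 4.3.3; group as the only term; Benjamini-Hochberg over 12510 genes; threshold 0.05). CPM are per TMM-scaled library, and SE and 95% intervals come from the fitted weights and moderated dispersion. The steps were tested on simulated data. Alternatives were RLE scaling, DESeq2 1.42.0, no filter, a robust fit, limma 3.58.1 on log2(TPM + 1) and log2(TPM + 0.1), the replicate block, and each library left out. Positions and overlaps are from GENCODE M21 (GRCm38), promoter sequences from RefSeq. Intervals cover counting error and the spread of these libraries, and PCR copies were not separated from molecules.

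The members and lists were chosen with earlier results of these data known. The genes named are the 10 members, Acvr2a, and up to 3 genes per direction and list with the lowest p past 0.05. From marker lists those at 0 or highest in TPM are named, and Ttr, Apoh, Serpina1a, Ahsg, Ptprc, Afp, Hnf4a, Foxa2 and Fgb were added after their values were seen, like the genes so marked in the text.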

Additional observations from a re-analysis of the deposited data

How the results depend on the processing

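The calls and directions of Relb, Nfkbia, Nfkbiz, Tnfaip3 and Icam1 held in all 11 alternatives, with log2 fold changes of -0.57 to -0.46, 0.74 to 0.95, 0.51 to 0.64, 0.46 to 0.65 and 0.55 to 0.63. Nfkb1 kept its direction (-0.63 to -0.36) and lost its call in both TPM fits. Of the values that did not pass, 4 changed sign near 0 when a library was left out: Nfkb2 ranged from -0.16 to 0.0041, Nfkbie from -0.0075 to 0.14, Birc3 from -0.0087 to 0.16 and Tnfrsf1a from -0.017 to 0.061, the last also being -0.057 in both TPM fits. Over 48 named genes and 528 values, 449 kept direction and call, 70 lost the call, 1 gained it and 8 changed sign. All genes called numbered 2158 (1467 higher, 691 lower) with log2(TPM + 1) and 2099 (1427 higher, 672 lower) with log2(TPM + 0.1), against 4741, and the cause was not tested. They ranged from 3586 to 4472 with a library left out. Pathway list genes called numbered 11 with DESeq2, 4 in each TPM fit, and 13 to 16 with a library left out, against 20. The replicate block called 5006 genes, 6 members, 22 pathway and 22 target genes. It rests on numbers that do not pair the samples: the deviations of NC 1 and KO 1 from their group means correlated at -0.0116 across genes. With 2 libraries a group, differences as small as those of Rela or Nfkbie were not detectable at this depth and spread.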
